A study of Saccharomyces cerevisiae with 4 samples.

Results

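The genes described here encode 10 carriers of the inner mitochondrial membrane. They were chosen by ORF identifier and not by their measured values, although earlier results of these data were known at the time. All 10 were among the 6301 ORFs of the deposited table. They are *AAC1* (YMR056C), *PET9* (YBL030C), *AAC3* (YBR085W), *MIR1* (YJR077C), *ODC1* (YPL134C), *ODC2* (YOR222W), *DIC1* (YLR348C), *CTP1* (YBR291C), *YMC1* (YPR058W) and *YMC2* (YBR104W). The R64 gene table gives every one of these ORFs that symbol and lists no other gene that overlaps any of them.

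Each of 4 spotted arrays of PCR-amplified ORFs carried cDNA from 2 media in which *S. cerevisiae* S288c, a standard laboratory strain, was grown at 30 °C. One sample had been moved to minimal medium without amino acids or adenine, with ammonium sulfate limited to 0.025%, for 12 h (nitrogen-poor). The other was in synthetic complete medium (nitrogen-rich). Reverse transcription in both was primed by oligo-dT together with a degenerate multi-targeted primer (MTP), and the dyes were swapped between arrays, with 2 arrays in each orientation. Nitrogen supply and amino acid supply differed together and cannot be told apart, and the methods describe growth in synthetic medium to mid log phase without saying whether the nitrogen-rich samples were taken then or after the same incubation. The replicates were independent reverse transcription reactions, and nothing in the sources used here says how many cultures they came from. The p-values therefore measure only the spread between arrays, which may be technical.

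Mitochondrial carriers are a family of related membrane proteins that exchange nucleotides, phosphate, organic acids, amino acids and cofactors between the matrix and the cytosol. The ADP/ATP and phosphate carriers supply ATP synthase with its substrates and let its product out. Carriers of oxodicarboxylates, dicarboxylates and citrate link the citrate cycle to syntheses in the cytosol, that of lysine among them.

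Between 5548 and 5992 ORFs had a value on each array, and the lowest correlation between arrays was r = 0.898 across ORFs, which are not independent replicates. Array medians lay between -0.03 and 0.11. Of the carrier genes, 7 had values on all 4 arrays, whereas *AAC3*, *CTP1* and *YMC2* were not measured on 1 array (replicate 2 with synthetic medium in Cy5) and were fitted on 3. Every value below is the log2 of nitrogen-poor over nitrogen-rich, so that 1 stands for a 2-fold higher relative abundance and 0 for no difference. Such ratios are relative to the mRNA of each culture and compare no gene's level with that of another, and a change in mRNA per cell cannot be told apart from them. Array values are listed for arrays M1 and M2, which the titles give as replicates 1 and 2 with minimal medium in Cy5, and then for arrays S1 and S2, the same with synthetic medium in Cy5.

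In nitrogen-poor medium, 5 of the 10 carrier genes were abundantly and 4 meagerly expressed at an adjusted p of 0.05 in limma. At this threshold 65.3% of the 5956 ORFs tested were called, 33.8% as higher and 31.5% as lower. With a change of at least 2-fold required as well, 3 carrier genes were higher (*ODC1*, *MIR1*, *PET9*) and 3 lower (*YMC2*, *ODC2*, *YMC1*), at a background of 10.3% in either direction, 5.57% higher and 4.77% lower. The median absolute log2 ratio was 1.22 over the carrier genes and 0.32 over all ORFs tested.

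**Figure D1:**
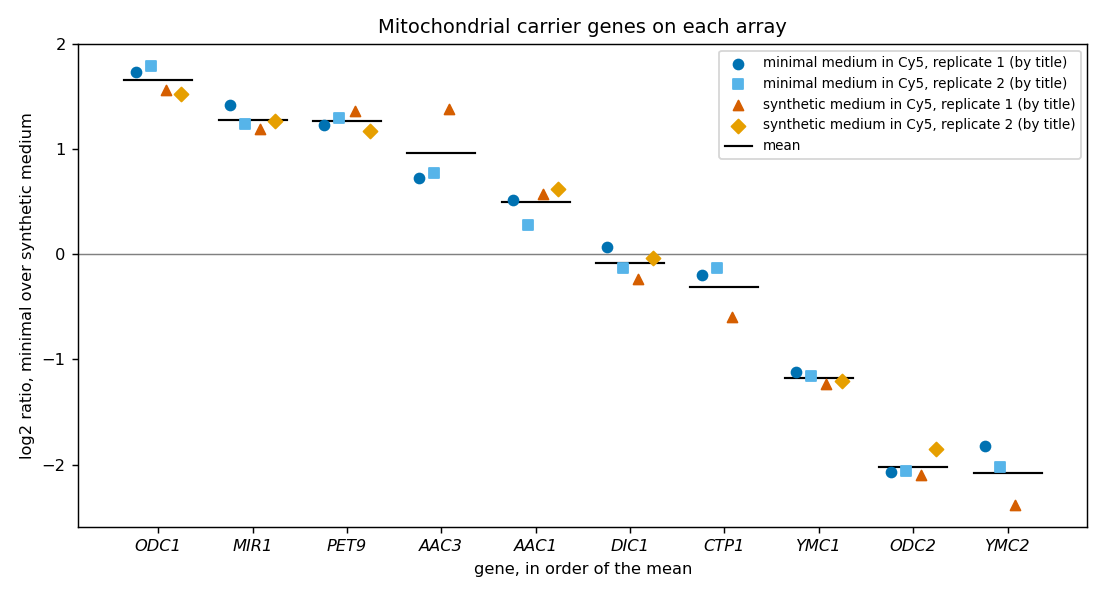
Log2 ratio of minimal over synthetic medium (vertical axis) of the 10 carrier genes on each array (1 symbol per array, by title), with the mean as a bar. *ODC1* lies highest at 1.65 and *YMC2* lowest at -2.08, and *DIC1* is the only gene of the 10 whose arrays fall on both sides of 0.

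The ADP/ATP carrier genes *PET9*, *AAC1* and *AAC3* and the phosphate carrier gene *MIR1* were all higher in nitrogen-poor medium. Each passed an adjusted p of 0.05 in limma, where 33.8% of all ORFs tested were called higher. *PET9* (also called *AAC2*) encodes the major ADP/ATP carrier of aerobic cells. It had values of 1.23, 1.30, 1.37 and 1.17, with a mean of 1.27 ± 0.08 (SD, n = 4 arrays; limma adjusted p = 5.77e-06), a 2.41-fold higher relative abundance. The 4 arrays lay close together, and the means of the dye orientations differed by 0.01.

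*AAC1* encodes a minor ADP/ATP carrier. Its values were 0.52, 0.28, 0.58 and 0.62, with a mean of 0.50 ± 0.15 (SD, n = 4 arrays; limma adjusted p = 0.000995), or 1.41-fold. Every array was above 0, with array M2 lowest.

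*AAC3* encodes the ADP/ATP carrier known for its expression without oxygen. Its 3 values of 0.73, 0.77 and 1.38 gave a mean of 0.96 ± 0.36 (SD, n = 3 arrays; limma adjusted p = 0.00176), or 1.95-fold. Array S1 stood above M1 and M2, whose mean was 0.75. The term for dye orientation had an adjusted p of 0.127 in limma. With the variance of this gene alone, without moderation, the adjusted p of the mean was 0.0761.

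*MIR1* encodes the main phosphate carrier. It measured 1.42, 1.24, 1.19 and 1.27, with a mean of 1.28 ± 0.10 (SD, n = 4 arrays; limma adjusted p = 6.21e-06), or 2.43-fold. All 4 arrays were more than 1 above 0. *MIR1* and *PET9* ranked 199 and 204 from the highest ratio among the ORFs tested, and their arrays overlapped.

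The oxodicarboxylate carrier genes moved apart. Both proteins carry 2-oxoadipate, an intermediate of lysine synthesis, and 2-oxoglutarate out of the matrix. *ODC1* had values of 1.73, 1.79, 1.56 and 1.53, with a mean of 1.65 ± 0.13 (SD, n = 4 arrays; limma adjusted p = 3.60e-06), or 3.15-fold higher. *ODC2* had values of -2.07, -2.06, -2.09 and -1.85, with a mean of -2.02 ± 0.11 (SD, n = 4 arrays; limma adjusted p = 1.40e-06), or 4.06-fold lower. *ODC1* was the highest of the 10 carrier genes on every array, and no array of either gene came near 0. Among all ORFs tested *ODC1* ranked 105 from the highest and *ODC2* ranked 65 from the lowest.

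The genes for the dicarboxylate and the citrate carrier changed least. *DIC1*, for the exchanger of malate or succinate against phosphate, had values of 0.07, -0.13, -0.23 and -0.04. The mean was -0.08 ± 0.13 (SD, n = 4 arrays; limma adjusted p = 0.299), with 95% limits of -0.24 and 0.08. It was the only carrier gene of the 10 that did not pass the test.

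*CTP1*, for the citrate carrier, had values of -0.20, -0.13 and -0.59, with a mean of -0.31 ± 0.25 (SD, n = 3 arrays; limma adjusted p = 0.0467). All 3 were below 0, but array S1 was far lower than the others. Leaving out S1 gave a mean of -0.16 (limma adjusted p = 0.143), and leaving out M2 a mean of -0.39 (0.0531). The call was also lost after centring the arrays on their medians (limma adjusted p = 0.0598).

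*YMC1* and *YMC2* encode closely related carriers whose substrates are less firmly established. *YMC1* measured -1.12, -1.16, -1.23 and -1.20, with a mean of -1.18 ± 0.05 (SD, n = 4 arrays; limma adjusted p = 5.54e-06), or 2.26-fold lower. This was the smallest SD of the 10 carrier genes. *YMC2* measured -1.82, -2.02 and -2.38, with a mean of -2.08 ± 0.28 (SD, n = 3 arrays; limma adjusted p = 3.52e-05), or 4.22-fold lower, the lowest mean of the 10. Both genes were more than 1 below 0 on every array that measured them, and *YMC2* ranked 60 from the lowest of all ORFs tested.

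**Figure D2:**
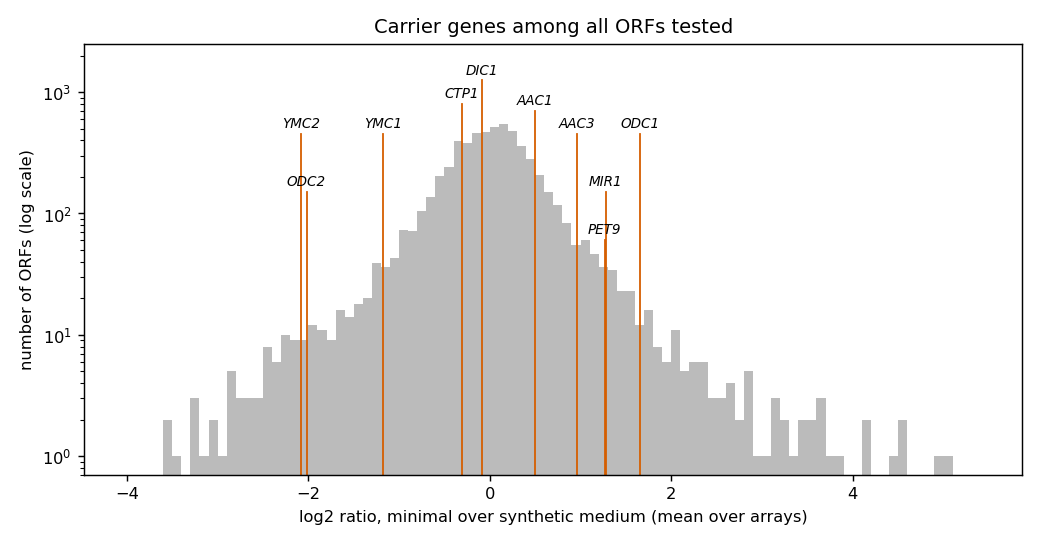
Number of ORFs (log scale) by mean log2 ratio of minimal over synthetic medium in bins over the 5956 ORFs tested (grey), with a line at the mean of each carrier gene. *DIC1* stands near the centre of the distribution and *CTP1* below it, at rank 1477 from the lowest. *ODC2* and *YMC2* stand in the lower tail.

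In order of the mean, the carrier genes ran from *ODC1* through *MIR1*, *PET9*, *AAC3*, *AAC1*, *DIC1*, *CTP1*, *YMC1* and *ODC2* to *YMC2*. Of the 9 neighbouring pairs in this order, 5 had array values that did not overlap. They overlapped between *MIR1* and *PET9*, between *PET9* and *AAC3*, between *DIC1* and *CTP1* and between *ODC2* and *YMC2*. The order within these pairs therefore lies within the spread of the arrays. No carrier gene of the 10 had a dye orientation term past an adjusted p of 0.05 in limma, as was so for all but 1 of the 5956 ORFs. With at most 2 arrays in each orientation, this term could miss a real difference. Synthetic minus minimal medium in Cy5 was 0.63 for *AAC3*, -0.46 for *YMC2* and -0.43 for *CTP1*, with S1 alone on 1 side. With the term in the fit, 4369 ORFs were called, against 3891 without it.

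Genes for related carriers were compared within arrays, in 6 pairs. With 4 arrays the exact two-sided sign-flip permutation test cannot give less than 0.125, and with 3 arrays not less than 0.25, so no pair could pass 0.05. The difference was widest between *ODC1* and *ODC2*, at 3.67 ± 0.21 (SD, n = 4 arrays; exact permutation p = 0.125, adjusted over the 6 pairs 0.25), with a range of 3.38 to 3.86. It favoured *ODC1* on 4 of 4 arrays.

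*PET9* exceeded *AAC1* by 0.77 ± 0.20 (SD, n = 4 arrays; exact permutation p = 0.125, adjusted 0.25), on 4 of 4 arrays. *AAC3* exceeded *AAC1* by 0.50 ± 0.30 (SD, n = 3 arrays; exact permutation p = 0.25, adjusted 0.3), on 3 of 3 arrays. *PET9* and *AAC3* differed by 0.34 ± 0.31 (SD, n = 3 arrays; exact permutation p = 0.5), in an order that turned on array S1, where the difference was -0.02. The ADP/ATP carrier genes resemble each other in sequence, and a spot of a whole ORF can take up cDNA of a similar gene. No sequence was compared here, and the share of such signal was not tested, either for these genes or for the other pairs.

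*YMC1* lay above *YMC2* by 0.91 ± 0.23 (SD, n = 3 arrays; exact permutation p = 0.25, adjusted 0.3), on 3 of 3 arrays. *MIR1* lay above *PIC2* (YER053C), the gene for a carrier of phosphate and copper, by 0.13 ± 0.03 (SD, n = 4 arrays; exact permutation p = 0.125, adjusted 0.25). That gap was the narrowest of the 6, and it ran the same way on 4 of 4 arrays.

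**Figure D3:**
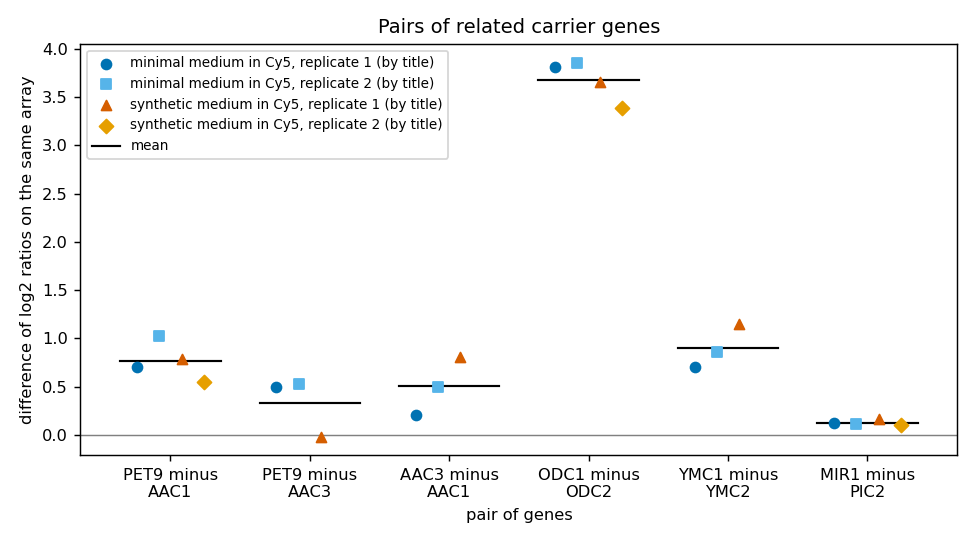
Difference between the log2 ratios of paired carrier genes on the same array (vertical axis; 1 symbol per array, mean as a bar). *ODC1* minus *ODC2* stands apart at 3.67, *MIR1* minus *PIC2* is 0.13, and pairs with *AAC3* or *YMC2* have 3 arrays.

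The yeast carrier family was listed with 35 genes, of which the other 25 were all tested. Of these, 9 were higher and 7 lower at an adjusted p of 0.05 in limma. These 16 of 25 lay near the share of 65.3% called over all ORFs tested. With at least a 2-fold change, 3 were higher and 3 lower, at a background of 5.57% and 4.77%. Their median was -0.03, against 0.03 for all ORFs tested, and their median absolute log2 ratio was 0.29.

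The largest increase of the family was that of *SFC1* (YJR095W), for the exchanger of succinate and fumarate, which measured 3.82, 2.75, 3.42 and 2.85. Its mean was 3.21 ± 0.50 (SD, n = 4 arrays; limma adjusted p = 1.12e-05), above every carrier gene of the 10 on every array. Among the other 25 carriers, the next were *PIC2* at 1.15 ± 0.11 and *SAL1* (YNL083W), for a calcium-dependent exchanger of ATP-Mg and phosphate, at 1.01 ± 0.35 (SD, n = 4 arrays each). *ODC1*, *MIR1* and *PET9* lay between *SFC1* and *PIC2*. *ANT1* (YPR128C), for the adenine nucleotide carrier of peroxisomes, did not pass the test at -0.03 ± 0.23 (SD, n = 4 arrays; limma adjusted p = 0.821).

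The largest decreases outside the 10 were those of *ORT1* (YOR130C), for the ornithine carrier of arginine synthesis, at -2.15 ± 0.10, *GGC1* (YDL198C), for the GTP/GDP carrier, at -1.95 ± 0.15 (SD, n = 4 arrays each), and *CRC1* (YOR100C), for the carnitine carrier, at -1.64 ± 0.18 (SD, n = 3 arrays). *ODC2* and *YMC2* lay among them. Among the other acid carriers, *OAC1* (YKL120W), for oxaloacetate, was lower at -0.98 ± 0.07, and *YHM2* (YMR241W), for citrate and 2-oxoglutarate, at -0.52 ± 0.18 (SD, n = 4 arrays each). *AGC1* (YPR021C), for aspartate and glutamate, measured -0.18 ± 0.24 (SD, n = 4 arrays; limma adjusted p = 0.139), and passed with 0.0219 at a mean of -0.29 when array S1 was left out. *HEM25* (YDL119C), for glycine, was lower at -0.22 ± 0.12 (SD, n = 4 arrays; limma adjusted p = 0.0223). Its limma adjusted p rose to between 0.0547 and 0.0756 when *HEM25* was fitted without M2, S1 or S2.

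**Figure D4:**
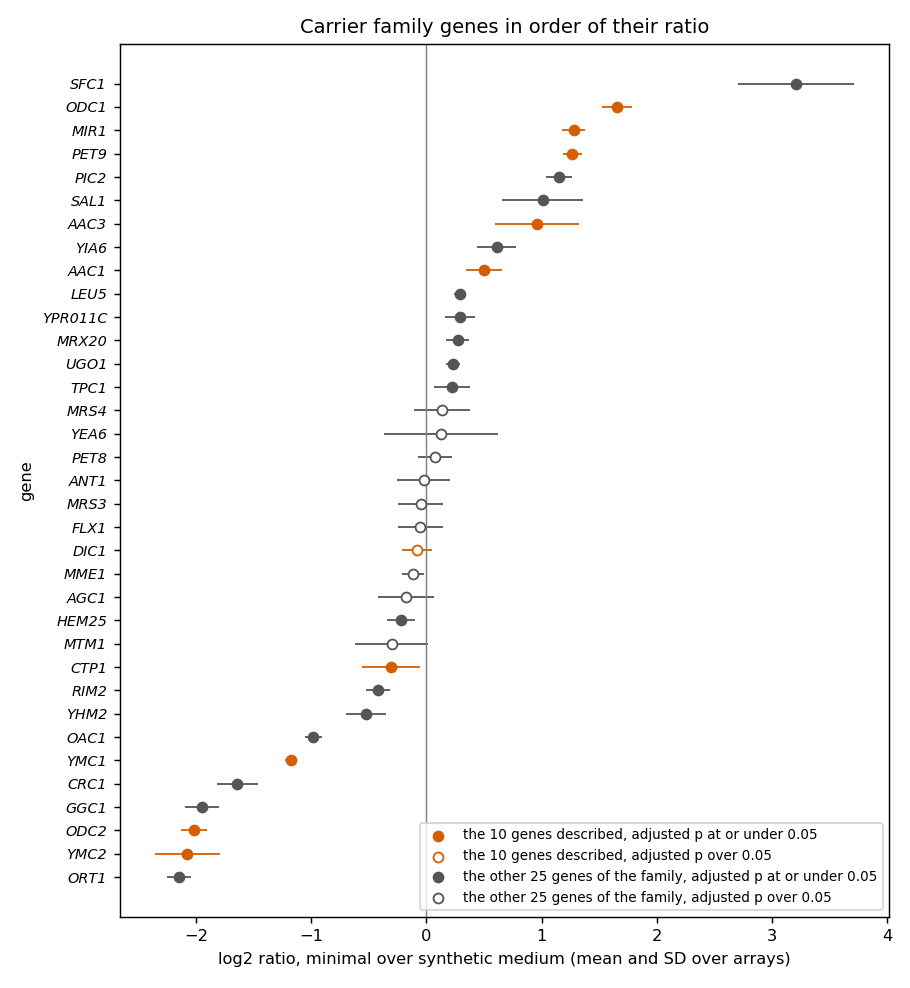
Mean log2 ratio of minimal over synthetic medium with its SD over arrays (horizontal axis) for the 35 carrier family genes, the 10 described in orange and the other 25 in grey; filled points passed an adjusted p of 0.05. *SFC1* at 3.21 and *ORT1* at -2.15 mark the ends, and 1 of the 10 and 9 of the 25 genes did not pass.

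ATP synthase, which uses the ADP and phosphate brought in by *PET9* and *MIR1*, had 13 subunit genes listed, of which 11 carried values. All 11 were higher at an adjusted p of 0.05 in limma, against 33.8% of all ORFs tested. Their ratios lay between 0.67 and 1.32 with a median of 1.01, led by *ATP15* (YPL271W) at 1.32 and *ATP7* (YKL016C) at 1.21. On each array the median of these subunits was 1.04, 1.01, 0.89 and 0.97. That of *PET9*, *AAC1*, *AAC3* and *MIR1* was 0.98, 1.00, 1.28 and 1.17, the last without *AAC3*. Both medians were far above the median of all ORFs on every array.

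Of 14 genes listed for enzymes that form or use the carried acids, 5 were higher and 6 lower at an adjusted p of 0.05 in limma. The median was -0.16. Over all ORFs tested, 33.8% were called higher and 31.5% lower. The largest increases were for *ACO1* (YLR304C), encoding aconitase, at 1.23 ± 0.11 and *FUM1* (YPL262W), encoding fumarase, at 1.23 ± 0.14 (SD, n = 4 arrays each). The largest decreases were for the homocitrate synthase genes of lysine synthesis, *LYS20* (YDL182W) at -3.14 ± 0.25 (SD, n = 4 arrays) and *LYS21* (YDL131W) at -2.74 ± 0.33 (SD, n = 3 arrays). When the list was split by pathway, after its values were seen, the 4 lysine enzymes were all lower, from -3.14 to -1.38. *LYS20* and *LYS21* both encode homocitrate synthase, and whether their spots share signal was not tested. The 10 of the citrate cycle held 5 higher and 2 lower genes, with a median of 0.28. *ODC2* thus lay within the range of the lysine enzymes, as did *YMC2*, and *ODC1* above every enzyme of the list. A link between the carrier genes and these enzymes was not tested.

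Small molecules also enter mitochondria by routes outside the carrier family. All 5 genes listed for them passed the test, as did 65.3% of all ORFs tested. *POR1* (YNL055C), for the main porin of the outer membrane, was higher at 0.76 ± 0.11, and *POR2* (YIL114C), for the minor porin, lower at -0.22 ± 0.14 (SD, n = 4 arrays each). The adjusted p of *POR2* was 0.0276 in limma and reached 0.119 without array M2 and 0.0935 without array S1. The mitochondrial pyruvate carrier pairs Mpc1 with either Mpc2 or Mpc3. *MPC1* (YGL080W) was higher at 0.81 ± 0.06 and *MPC2* (YHR162W) lower at -2.60 ± 0.14 (SD, n = 4 arrays each), with no array of either gene on the other side of 0. *MPC3* (YGR243W), named after its value was seen, was higher at 0.63 ± 0.10 (SD, n = 4 arrays).

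Carrier proteins reach the inner membrane through the TOM complex, the small TIM chaperones and the TIM22 complex. Of 16 genes listed for this route, 12 were tested, with a median of 0.03, while *TOM5*, *TIM8*, *TIM9* and *TIM10* had no values. Of the 12, 3 were higher, 4 lower and 5 not past an adjusted p of 0.05 in limma. Over all ORFs tested, 65.3% were called. *TOM70* (YNL121C), for a receptor of carrier precursors, was lowest at -1.65 ± 0.10, followed by *TOM40* (YMR203W), for the channel, at -1.27 ± 0.20 (SD, n = 4 arrays each). The highest were *TOM6* (YOR045W) at 0.49 ± 0.08 and *TIM12* (YBR091C) at 0.22 ± 0.06 (SD, n = 4 arrays each). The measured genes of the route had no common direction, and *TOM70* and *TOM40* were the lowest of them.

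**Figure D5:**
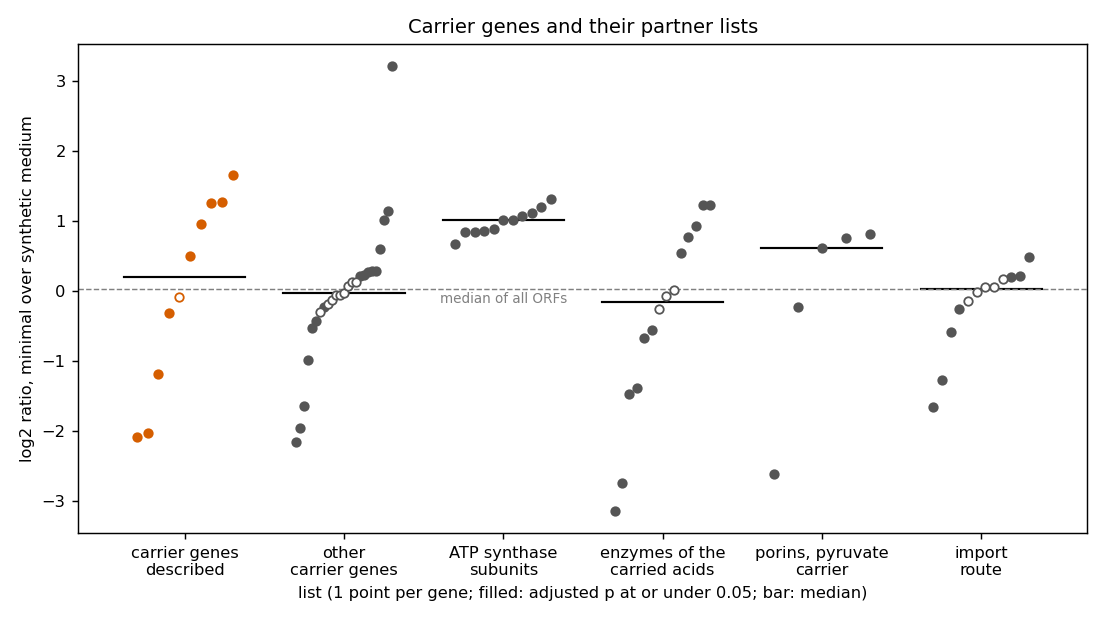
Mean log2 ratio of minimal over synthetic medium (vertical axis), 1 point per gene, for the 10 carrier genes, the other 25 of the family and 4 partner lists; filled points passed an adjusted p of 0.05, bars are list medians and the dashed line is the median of all ORFs. All 11 ATP synthase subunits lie between 0.67 and 1.32, whereas the carrier genes spread from -2.08 to 1.65.

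*AAC3* belongs to the genes for isoforms used when oxygen is low. Of 4 other such genes, *ANB1* (YJR047C), for translation factor eIF5A, was higher at 0.57 ± 0.12 and *HMG2* (YLR450W), for HMG-CoA reductase, at 0.24 ± 0.09 (SD, n = 4 arrays each). *COX5B* (YIL111W), for a subunit of cytochrome c oxidase, was lower at -1.56 ± 0.15 (SD, n = 4 arrays). *CYC7* (YEL039C), for cytochrome c, measured 0.21 ± 0.19 (SD, n = 3 arrays; limma adjusted p = 0.0958), and passed with a dye orientation term (limma adjusted p = 0.0127). These genes therefore had no common direction.

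Of their aerobic counterparts, *CYC1* (YJR048W) at 0.91 ± 0.11 and *HYP2* (YEL034W) at 0.65 ± 0.14 were higher (SD, n = 4 arrays each). *HYP2* and *ANB1* are near-identical genes, so their spots can share signal. *COX5A* (YNL052W) at -0.05 ± 0.18 and *HMG1* (YML075C) at -0.01 ± 0.11 did not pass the test (SD, n = 4 arrays each). *AAC3* at 0.96 lay above the other 4 low-oxygen genes in its mean, as *PET9* at 1.27 lay above the 4 aerobic ones.

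Among 10 transcription factor genes listed as regulators of respiration, oxygen response or amino acid synthesis, 2 were higher and 3 lower at an adjusted p of 0.05 in limma. The shares over all ORFs tested were 33.8% higher and 31.5% lower. *LYS14* (YDR034C), for the activator of lysine synthesis genes, measured -2.22, -2.11, -1.99 and -2.14, with a mean of -2.11 ± 0.09 (SD, n = 4 arrays). *LEU3* (YLR451W), for the regulator of leucine synthesis, was lower at -0.57 ± 0.15, and *HAP1* (YLR256W), for the heme-dependent activator, at -0.24 ± 0.06 (SD, n = 4 arrays each). *GCN4* (YEL009C), for the activator of amino acid synthesis genes, whose control is known to act largely on its translation, was higher at 0.33 ± 0.12 (SD, n = 4 arrays).

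*HAP4* (YKL109W), for the limiting subunit of the activator of respiratory genes, was higher at 0.30 ± 0.23 (SD, n = 4 arrays; limma adjusted p = 0.0264). Leaving out array M1 gave 0.20 (limma adjusted p = 0.0694), and leaving out M2 gave 0.29 (0.0789). Centring the arrays also cost *HAP4* its call (limma adjusted p = 0.0539), as did centring and scaling them (0.0514). In all, the call was lost in 5 of 12 alternatives. The other subunit genes *HAP2* (YGL237C), *HAP3* (YBL021C) and *HAP5* (YOR358W) measured -0.14, 0.0044 and -0.05, and the repressor genes *ROX1* (YPR065W) and *MOT3* (YMR070W) -0.07 and 0.04. None of these 5 passed the test, although *HAP2* did so with a dye orientation term (limma adjusted p = 0.0298) and after centring the arrays (0.0398) or centring and scaling them (0.0431). Regulator transcripts thus lay near 0 apart from *LYS14* and *LEU3*, with means between -0.24 and 0.33.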

How the data were processed

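The arrays compared *S. cerevisiae* in minimal and in synthetic complete medium. The authors scanned them with a GenePix scanner, subtracted the local background, scaled the well measured spots by mean signal and deposited 1 log2 ratio for each ORF on each array. A spot too close to its background has no ratio, and neither this filter nor the background correction could be varied here. Titles and channel descriptions disagree on the dyes. All 4 arrays ran in the direction minimal over synthetic, and on a log2 scale, when set against the ratios of the study's supplementary table. No further normalization was applied.

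The fit (limma 3.58.1, R 4.3.3) took every ORF measured on 3 or 4 arrays, with the mean ratio as the only coefficient. Calls were made at an adjusted p of 0.05 (two-sided, Benjamini-Hochberg over 5956 ORFs). Pairs of genes were compared by an exact two-sided sign-flip permutation test over arrays. The fit was also run on simulated data, in which far fewer ORFs changed than were called here. No error rate is drawn from that run. The Bayesian program of the authors was not run. Symbols came from the R64 table of RefSeq, in which all 101 listed genes were found.

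The carrier genes, the other lists, the rule for named genes and the alternatives were chosen with earlier results of these data known. The rule named the 10 genes and those carriers of the family that share or meet their substrates. It added the 3 largest increases and 3 largest decreases among the other carriers and up to 2 in each direction of each partner list. It took in all isoform genes and transcription factors. The alternatives left out each array, centred or scaled the arrays, added a dye term or a replicate block, changed the ORFs kept, the variance or the threshold. Promoter motifs and protein features were planned and not analysed here.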

Additional observations from a re-analysis of the deposited data

Results flagged for a closer look

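Of 83 sets of 4 array values examined among the listed genes, 1 had an array far from the others, and chance alone puts about 5% of such sets past the limit. It was *ODC2*, for the oxodicarboxylate carrier, where array S2 measured -1.85 and the others lay between -2.09 and -2.06, so that the gap was 0.865 of the whole range. Without this array the mean was -2.08.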

How the results depend on the processing

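No named gene reversed its direction past the threshold under any alternative. Of the 10 carrier genes, between 8 and 9 passed with single arrays left out, and the other 25 carriers gave 13 to 17. Over all ORFs tested, these fits called between 3333 of 5983 and 3757 of 6009. Requiring at least a 2-fold change lowered the count of the 10 carrier genes from 9 to 6, with *AAC1*, *AAC3* and *CTP1* lost. It lowered that of the other carriers from 16 to 6, and the share over all ORFs tested from 65.3% to 10.3%. The replicate numbers did not pair the arrays (r = 0.01 between the deviations of same-numbered arrays). With a replicate block, 8 carrier genes and 15 of the other carriers passed, beside 3501 of all 5956 ORFs. *CTP1* was lost there (limma adjusted p = 0.109). In the alternatives other than the thresholds, *CTP1* was called in 5 of 11 and *AAC3* in 10 of 11. The rest of the 10 carrier genes kept their side of the threshold in all of these. On the 7 carrier genes measured on all 4 arrays, 6 passed, and with each ORF's own variance 7 of the 10 did. The counts over all ORFs in these fits were 3448 of 5231 and 3074 of 5956. The partner lists and their genes were put through these alternatives, other than the thresholds, after the data had been seen, and their counts stayed within 1.5 times the values given. With at least a 2-fold change required, the counts fell from 11 to 6 for ATP synthase and for the enzymes of the carried acids. They fell from 7 to 2 for the import route and from 5 to 1 for the porins and pyruvate carrier and for the transcription factors. For the aerobic and low-oxygen isoforms they fell from 2 to 0 and from 3 to 1. The number of arrays limits the precision.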
